A study of Homo sapiens with 18 samples.

Results

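The extracellular matrix genes of SK-N-MC cells were read from Affymetrix HG-U133A arrays of cells grown with or without rotenone. The members are the probe sets that carry a single gene symbol naming a collagen chain or a laminin chain, or 1 of a fixed set of other matrix genes, among them FN1 (fibronectin), TNC (tenascin C), LOX (lysyl oxidase) and LUM (lumican). These symbols matched 148 probe sets of 63 genes among the 22283 probe sets of the array. On 3 or more arrays a signal of 50 or more was reached by 93 probe sets of 48 genes, among 9162 genes measured in all by the same filter, and the brightest such probe set stood for its gene. The 15 matched genes below that filter were COL4A3, COL4A4, COL4A5, COL8A1, COL9A1, COL10A1, COL11A1, COL14A1, COL15A1, COL19A1, HSPG2, LAMA1, LAMB4, MGP and POSTN. At the edge of the filter, 1 probe set of TNC and 1 of COL8A2 reached 50 on 3 arrays and were kept, and 1 probe set of LAMA4 reached it on 2 arrays and was not.

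SK-N-MC is a human tumour line that the labels call neuroepithelioma and the study neuroblastoma, and all cells were kept without added pyruvate. Rotenone, a plant-derived pesticide, inhibits complex I of the mitochondrial respiratory chain. Vehicle (0.05% ethanol), 5 nM rotenone or 50 nM rotenone was given for 1 week or for 4 weeks, which makes the vehicle groups 1w0 nM and 4w0 nM, the low-dose groups 1w5 nM and 4w5 nM, and the high-dose groups 1w50 nM and 4w50 nM, with 3 arrays each and 18 in all. All values come from 1 cell line, and the small number of arrays in a group limits the precision. Per the design text of the series, each array holds RNA of 5 pooled dishes from 1 of 3 experiments, and the p-values rest on the scatter of these pools. In RNA of whole cultures, fewer cells that make a transcript and less of it per cell cannot be told apart.

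The extracellular matrix is the protein scaffold around cells. Fibrillar collagens are secreted as procollagens, trimmed, assembled into fibrils and cross-linked by lysyl oxidases, laminins and type IV collagen form basement membranes, and fibronectin, tenascins and thrombospondins link cells to the scaffold or loosen that link. Small proteoglycans such as decorin and lumican bind collagen fibrils and shape their width, and fibrillins and elastin build elastic fibres. Matrix genes of this kind are made in quantity by fibroblasts and other mesenchymal cells, and cultured tumour lines often express a part of them.

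Some arrays stood apart. The 3 arrays of 1w0 nM differed from each other more than those of any other group: over the matrix genes, the log2 deviations from the group mean had an SD of 0.349, 0.64 and 0.873 on replicates 1 to 3, against at most 0.443 on the other arrays. Over all genes the SD was 0.22, 0.306 and 0.419 on these replicates, against at most 0.284 on the other arrays. Results that use this vehicle are given below with other choices of vehicle. The labels of a pair of arrays are also in doubt, since group means listed by the study are matched by the deposited arrays mostly when that pair is exchanged. These are 1w5 nM replicate 2 and 1w50 nM replicate 3, which stay here where their labels put them. On the 6 arrays of 4w5 nM and 4w50 nM, the hybridization control probe sets averaged 0.496 times their signal on the other 12 arrays, and that difference and rotenone at 4 weeks cannot be told apart. Array medians lay between 87.0 and 102. Of a list of 10 genes typical of Ewing family tumour lines, 7 were on the array and all of them reached a signal of 50. Of 14 sympathetic neuroblast genes on the array, 9 were measured, among them UCHL1 and ENO2, and PHOX2A, TH, HAND2, STMN2 and NEFM stayed below 50 on every array.

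When each dose was compared with the vehicle of its own week, more matrix genes rose than fell at 1 week and more fell than rose at 4 weeks. A gene was called, in the probe set read for it, at a limma adjusted p below 0.05 over all 9162 genes. In 1w5 nM, 16 of the 48 genes rose (4.98% of all genes did) and 0 fell (1.62% of all genes did), and the median log2 difference was 0.445 over the matrix genes and 0.068 over all genes. In 1w50 nM, 16 rose and 0 fell, beside 8.75% and 11.3% of all genes, with medians of 0.410 and 0.024. In 4w5 nM, 6 rose and 16 fell, beside 18.6% and 14.3% of all genes, with medians of -0.320 and 0.028. In 4w50 nM, 2 rose and 17 fell, beside 23.5% and 17.7% of all genes, with medians of -0.236 and 0.017. The first pair of comparisons shares the 1w0 nM arrays and the second pair the 4w0 nM arrays, so neither pair is independent. By group, the highest mean was in 1w0 nM for 1 gene, in 1w5 nM for 11, in 1w50 nM for 12, in 4w0 nM for 6, in 4w5 nM for 12 and in 4w50 nM for 6. The lowest mean was most often in 4w5 nM (16 genes), 4w50 nM (15 genes) or 1w0 nM (11 genes), and in 4w0 nM for 0 genes.

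**Figure D1:**
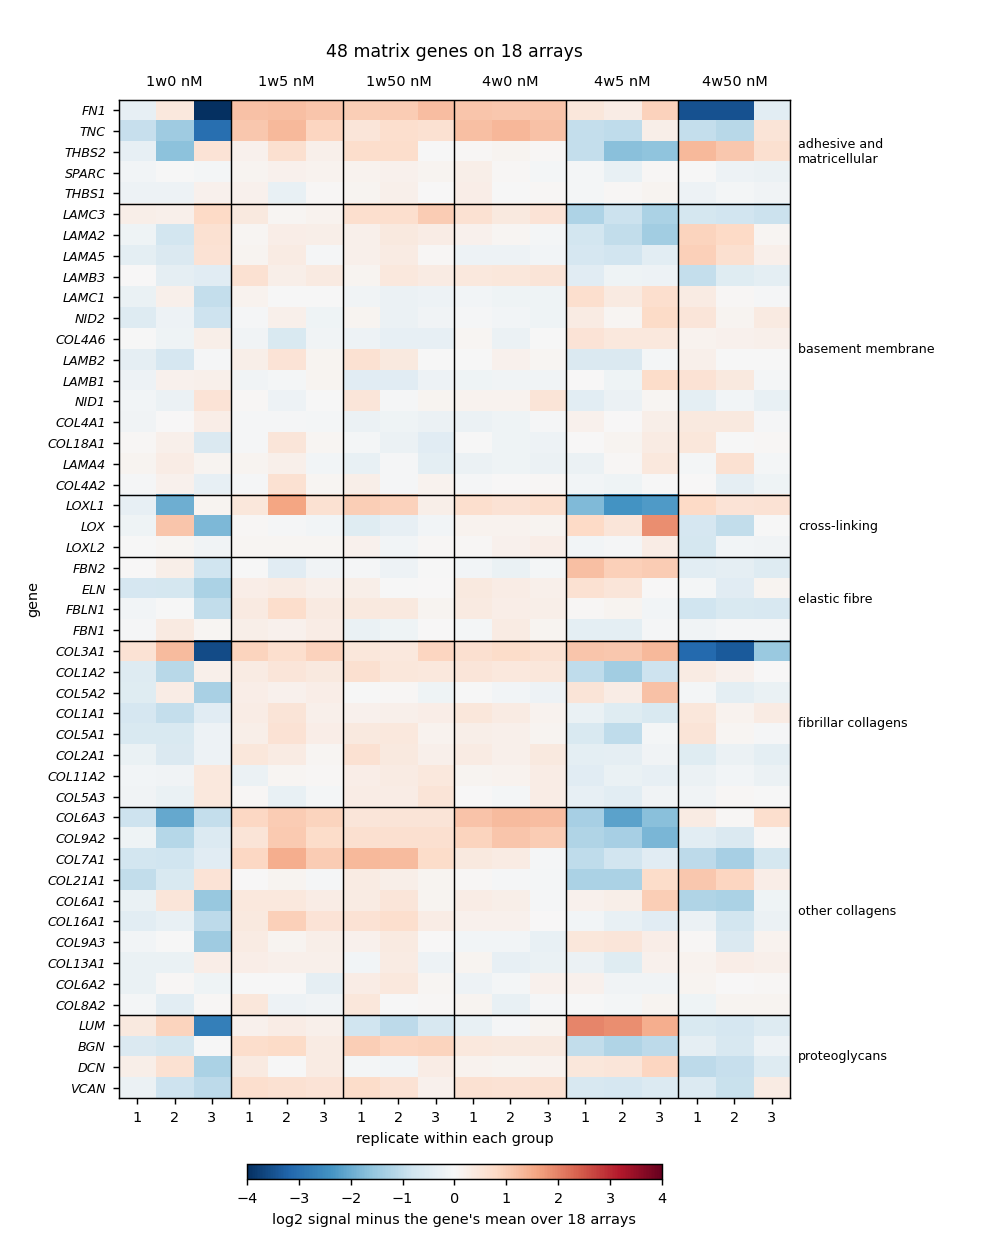
Log2 signal of the 48 matrix genes (one per line, grouped by role) on the 18 arrays (columns, 3 for each group), shown as the difference from the gene's mean over all arrays, red above and blue below, with colours saturating at 4 on either side. FN1, COL3A1, TNC and LUM are far lower on 1w0 nM replicate 3 than on the other 1w0 nM arrays, and FN1 and COL3A1 are also far lower in 4w50 nM.

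The adhesive and matricellular glycoproteins held 5 measured genes, of which 2 fell and 0 rose at each dose at 4 weeks. Of all genes, 14.3% fell and 18.6% rose in 4w5 nM, and 17.7% fell and 23.5% rose in 4w50 nM. FN1, which binds integrins, collagens and heparin and forms pericellular fibrils, gave signals of 576, 954 and 36.9 in 1w0 nM, of 1623, 1637 and 1553 in 1w5 nM and of 1414, 1440 and 1674 in 1w50 nM. At 4 weeks it gave 1548, 1503 and 1556 with vehicle, 977, 877 and 1355 with 5 nM, and 64.2, 63.9 and 533 with 50 nM. Every 4w50 nM array lay below every array of both other 4-week groups, and replicate 3 was several times above the other two. In 4w50 nM, FN1 was 11.8-fold below 4w0 nM (log2 difference -3.56, SE 0.86, limma adjusted p = 0.00303), and its log2 difference in 4w5 nM was -0.55 (SE 0.86, adjusted p = 0.655). At 1 week all 6 rotenone arrays were above the 3 vehicle arrays, with log2 differences of 2.56 (adjusted p = 0.0769) and 2.46 (adjusted p = 0.0500, not below the threshold) at 5 nM and 50 nM. The SE of 0.86 is the widest among the genes given in full and covers the spread within 1w0 nM and within 4w50 nM. The 5 kept probe sets of FN1 had log2 differences between -4.07 and -1.81 in 4w50 nM against 4w0 nM. In 1w5 nM they lay between 0.98 and 2.90, and 0 were called. In 1w50 nM they lay between 0.35 and 2.78, and 3 were called higher, though the one read was not.

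TNC, a counter-adhesive glycoprotein, gave 68.8, 48.1 and 12.7 in 1w0 nM, 273, 320 and 234 in 1w5 nM, and 181, 207 and 198 in 1w50 nM. Its signals in 4w0 nM were 298, 324 and 291, in 4w5 nM 67.7, 64.9 and 154, and in 4w50 nM 66.8, 59.9 and 186. TNC was thus lowest in the vehicle at 1 week and highest in the vehicle at 4 weeks, and neither dose group overlapped its own vehicle. The log2 differences at 4 weeks were -1.79 (SE 0.45, limma adjusted p = 0.00565) for 5 nM and -1.75 (SE 0.45, adjusted p = 0.00498) for 50 nM. THBS2 (thrombospondin 2, which restrains fibril growth and vessel growth) gave 224, 231 and 223 in 4w0 nM, 111, 66.9 and 70.2 in 4w5 nM, and 530, 452 and 335 in 4w50 nM. The 3 groups did not overlap, with the vehicle between the doses, and THBS2 fell in 4w5 nM (log2 difference -1.49, SE 0.37, adjusted p = 0.00568) while its value in 4w50 nM was 0.93 (SE 0.37, adjusted p = 0.0546). SPARC, a collagen-binding protein of secretory cells, lay between 1872 and 2692 on all 18 arrays in the probe set read, while its second, dimmer probe set gave 1.27 in 1w5 nM, 1.12 in 1w50 nM and -1.42 in 4w50 nM, each called, and -0.60 in 4w5 nM, not called. THBS1 was not called at either dose and week in the probe set read.

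Of the 14 basement membrane genes, 3 rose and 3 fell in 4w5 nM, and 2 rose and 3 fell in 4w50 nM, where 18.6% and 14.3% of all genes and then 23.5% and 17.7% of them did, so that these counts lay near the background. LAMC3, a laminin gamma chain, gave 103, 89.3 and 99.6 in 4w0 nM, 29.0, 37.9 and 28.2 in 4w5 nM, and 42.1, 40.0 and 37.8 in 4w50 nM, so both dose groups lay wholly below the vehicle. Its log2 difference was -1.63 (SE 0.18, limma adjusted p = 7.67e-06) for 5 nM and -1.28 (SE 0.18, adjusted p = 3.30e-05) for 50 nM. LAMA2, the alpha chain of the laminin of muscle and nerve, gave 105, 98.1 and 87.8 in 4w0 nM, 56.0, 46.5 and 35.5 in 4w5 nM, and 172, 162 and 98.5 in 4w50 nM. The 5 nM arrays were all below the vehicle arrays (log2 difference -1.10, SE 0.27, adjusted p = 0.0048), whereas the 50 nM arrays overlapped them (0.53, SE 0.27, adjusted p = 0.121). LAMC1 (0.72), COL4A6 (0.53) and NID2 (0.50) rose in 4w5 nM, LAMA5 (0.77) and COL4A1 (0.38) rose in 4w50 nM, and LAMB3 fell in both (-0.74 and -1.07). The remaining basement membrane gene that fell in 4w50 nM was NID1 (nidogen 1, a laminin and collagen IV linker), at -0.54. The calls of COL4A6 and NID2 in 4w5 nM and of LAMA5, COL4A1 and NID1 in 4w50 nM were each lost without at least 1 array, LAMA5 without 4w50 nM replicate 1. LAMB2 and LAMB3 rose at 1 week at both doses, by 0.65 and 0.66 in 1w5 nM and by 0.69 and 0.54 in 1w50 nM, and both lost the call without any 1 of several single arrays.

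The cross-linking enzymes were LOX, LOXL1 and LOXL2, copper-dependent amine oxidases that act on collagen and elastin. LOXL1 gave 256, 237 and 251 in 4w0 nM, 46.5, 30.6 and 33.3 in 4w5 nM, and 274, 231 and 235 in 4w50 nM. Its 4w5 nM arrays stood below all other 4-week arrays, at a level met elsewhere in 1w0 nM replicate 2 only. The log2 difference from vehicle was -2.78 (SE 0.38, limma adjusted p = 5.82e-05) for 5 nM and -0.01 (SE 0.38, adjusted p = 0.983) for 50 nM. At 1 week LOXL1 gave 126, 41.4 and 170 with vehicle, 217, 479 and 244 with 5 nM, and 311, 302 and 186 with 50 nM, and rose at both doses (1.61 and 1.43). LOX gave 386, 384 and 379 in 4w0 nM, 599, 490 and 1273 in 4w5 nM, and 219, 176 and 340 in 4w50 nM. All 5 nM arrays of LOX were above and all 50 nM arrays below the vehicle, with log2 differences of 0.91 (SE 0.48, adjusted p = 0.151) and -0.70 (SE 0.48, adjusted p = 0.255) that did not pass the test. The 3 kept probe sets of LOX lay between -1.24 and -0.70 in 4w50 nM, and 1 of them was called lower. LOX ran from 101 to 753 within 1w0 nM, which was wider than the whole of the other 1-week arrays. LOXL2 fell in 4w50 nM (-0.49, SE 0.16, adjusted p = 0.0243), a call lost without 4w0 nM replicate 2 or 3 or 4w50 nM replicate 1. The 1-week calls of LOXL1 were lost without 1w5 nM replicate 2 in the one dose, and without 1w0 nM replicate 2 or 1w50 nM replicate 1 or 2 in the other.

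Among the 4 elastic fibre genes, FBN2 (fibrillin 2, a microfibril protein most abundant in development) gave 58.1, 51.5 and 59.6 in 4w0 nM, 145, 120 and 127 in 4w5 nM, and 46.1, 49.0 and 43.7 in 4w50 nM. It was higher in 4w5 nM than on any array of another group and rose by 1.21 (SE 0.21, limma adjusted p = 0.000326). Its log2 difference in 4w50 nM was -0.28 (adjusted p = 0.285). ELN (elastin) gave 214, 210 and 140 in 1w0 nM and between 334 and 427 on the 6 rotenone arrays of that week, with no overlap. It rose by 1.15 (SE 0.18, adjusted p = 0.00128) in 1w5 nM and by 0.95 (SE 0.18, adjusted p = 0.00231) in 1w50 nM, and was not called at 4 weeks in the probe set read. FBLN1 (fibulin 1) rose at 1 week (0.84 and 0.66) and fell in 4w50 nM (-0.96, SE 0.19, adjusted p = 0.000871). Of its 5 kept probe sets, 1 was called higher at each 1-week dose, and the lowest values were -0.16 and -0.44. The 1w5 nM call was lost without 1w5 nM replicate 2, and the 1w50 nM call without 1w0 nM replicate 3 or 1w50 nM replicate 1 or 2.

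The 8 fibrillar collagen genes went in different directions at the same dose. COL3A1, the chain of the type III fibrils of compliant tissues, gave 774, 1248 and 43.9 in 1w0 nM, 976, 832 and 998 in 1w5 nM, and 711, 703 and 954 in 1w50 nM. Its 4-week signals were 823, 872 and 794 with vehicle, 1125, 1098 and 1297 with 5 nM, and 60.1, 51.0 and 188 with 50 nM. The 3 groups of 4 weeks did not overlap, COL3A1 in 4w50 nM was 9.96-fold below 4w0 nM (log2 difference -3.32, SE 0.78, limma adjusted p = 0.00265), and the 5 nM value was 0.50 (SE 0.78, adjusted p = 0.656). The 3 kept probe sets of COL3A1 had log2 differences between -3.40 and -2.97 in 4w50 nM against 4w0 nM.

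COL1A2, the second chain of type I collagen, gave 3197, 3083 and 3148 in 4w0 nM, 1120, 874 and 1297 in 4w5 nM, and 2884, 2579 and 2305 in 4w50 nM. It fell in 4w5 nM to a level met elsewhere in 1w0 nM replicate 2 only, at 1065 (log2 difference -1.54, SE 0.21, adjusted p = 6.49e-05), and its 4w50 nM value was -0.28 (adjusted p = 0.305). COL1A1 (-0.76), COL5A1 (-0.75), COL2A1 (-0.60) and COL11A2 (-0.53) also fell in 4w5 nM, COL5A2 rose there (0.77, a call lost without any 1 of 5 arrays), and COL3A1 and COL2A1 (-0.68) were the fibrillar chains that fell in 4w50 nM. At 1 week COL1A1, COL1A2, COL2A1 and COL5A1 rose at both doses, between 0.63 and 1.03 in 1w5 nM and between 0.74 and 0.97 in 1w50 nM. The 1w5 nM calls of COL1A2, COL2A1 and COL5A1 were each lost without any 1 of 2 to 4 arrays, 1w5 nM replicate 2 among them for all of these genes.

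Of the 10 other collagens, 3 fell in 4w5 nM and 5 in 4w50 nM, and 0 rose in either, in the probe sets read. In these 2 groups 14.3% and 17.7% of all genes fell, and 18.6% and 23.5% rose. COL6A3, the long chain of the beaded type VI filaments, gave 370, 398 and 392 in 4w0 nM, 67.0, 37.6 and 52.8 in 4w5 nM, and 212, 171 and 266 in 4w50 nM. The lower dose had the larger fall: 7.57-fold in 4w5 nM (log2 difference -2.92, SE 0.25, limma adjusted p = 5.25e-07) and 1.82-fold in 4w50 nM (-0.86, SE 0.25, adjusted p = 0.0109). Without 4w50 nM replicate 2 the 50 nM call of COL6A3 was lost. COL9A2, a chain of the fibril-associated type IX collagen of cartilage, gave 459, 533 and 499 in 4w0 nM, 108, 98.8 and 69.7 in 4w5 nM, and 186, 167 and 259 in 4w50 nM. It followed the same order, with log2 differences of -2.45 (SE 0.22, adjusted p = 9.71e-07) and -1.31 (SE 0.22, adjusted p = 0.000203). COL7A1, which forms the anchoring fibrils of skin, gave 61.1, 58.6 and 73.1 in 1w0 nM, 181, 274 and 206 in 1w5 nM, and 249, 245 and 169 in 1w50 nM, and rose about alike at both doses of that week (1.76 and 1.77, SE 0.21). At 4 weeks it fell at both doses (-0.98 and -1.25). COL16A1 rose at both doses at 1 week (1.23 and 1.12) and fell in 4w50 nM (-0.52), a call lost without 4w50 nM replicate 2 or any 1 of the 4w0 nM arrays. COL6A1 fell in 4w50 nM (-1.04, SE 0.37, adjusted p = 0.0310), a call lost without 4w0 nM replicate 1 or 2 and without 4w50 nM replicate 1 or 2.

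All 4 proteoglycans were called in 1 of the 4-week groups or both. In 4w5 nM 1 rose and 2 fell, beside 18.6% and 14.3% of all genes. In 4w50 nM 0 rose and 3 fell, beside 23.5% and 17.7%. LUM, a keratan sulfate proteoglycan of collagen fibrils, gave 142, 200 and 10.2 in 1w0 nM, 121, 130 and 123 in 1w5 nM, and 61.7, 51.5 and 68.2 in 1w50 nM. At 4 weeks it gave 87.7, 104 and 116 with vehicle, 419, 385 and 293 with 5 nM, and 69.7, 67.7 and 75.2 with 50 nM. LUM rose in 4w5 nM (log2 difference 1.83, SE 0.56, limma adjusted p = 0.0186) and its value in 4w50 nM was -0.53 (SE 0.56, adjusted p = 0.478), with no overlap among the 3 groups, and the 5 nM call was lost without 4w0 nM replicate 1 or 4w5 nM replicate 1. BGN (biglycan) gave 293, 287 and 283 in 4w0 nM, 110, 94.6 and 106 in 4w5 nM, and 168, 139 and 188 in 4w50 nM, and fell at both doses (-1.48, SE 0.17, adjusted p = 9.97e-06 and -0.81, SE 0.17, adjusted p = 0.000907). VCAN (versican) also fell at both (-1.22 and -0.96), and DCN (decorin) fell in 4w50 nM (-0.97, SE 0.32, adjusted p = 0.0201), a call lost without 4w0 nM replicate 1 or 3 and without 4w50 nM replicate 1 or 2. At 1 week BGN and VCAN rose at both doses, by 1.03 and 1.32 in 1w5 nM and by 1.34 and 1.21 in 1w50 nM.

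**Figure D2:**
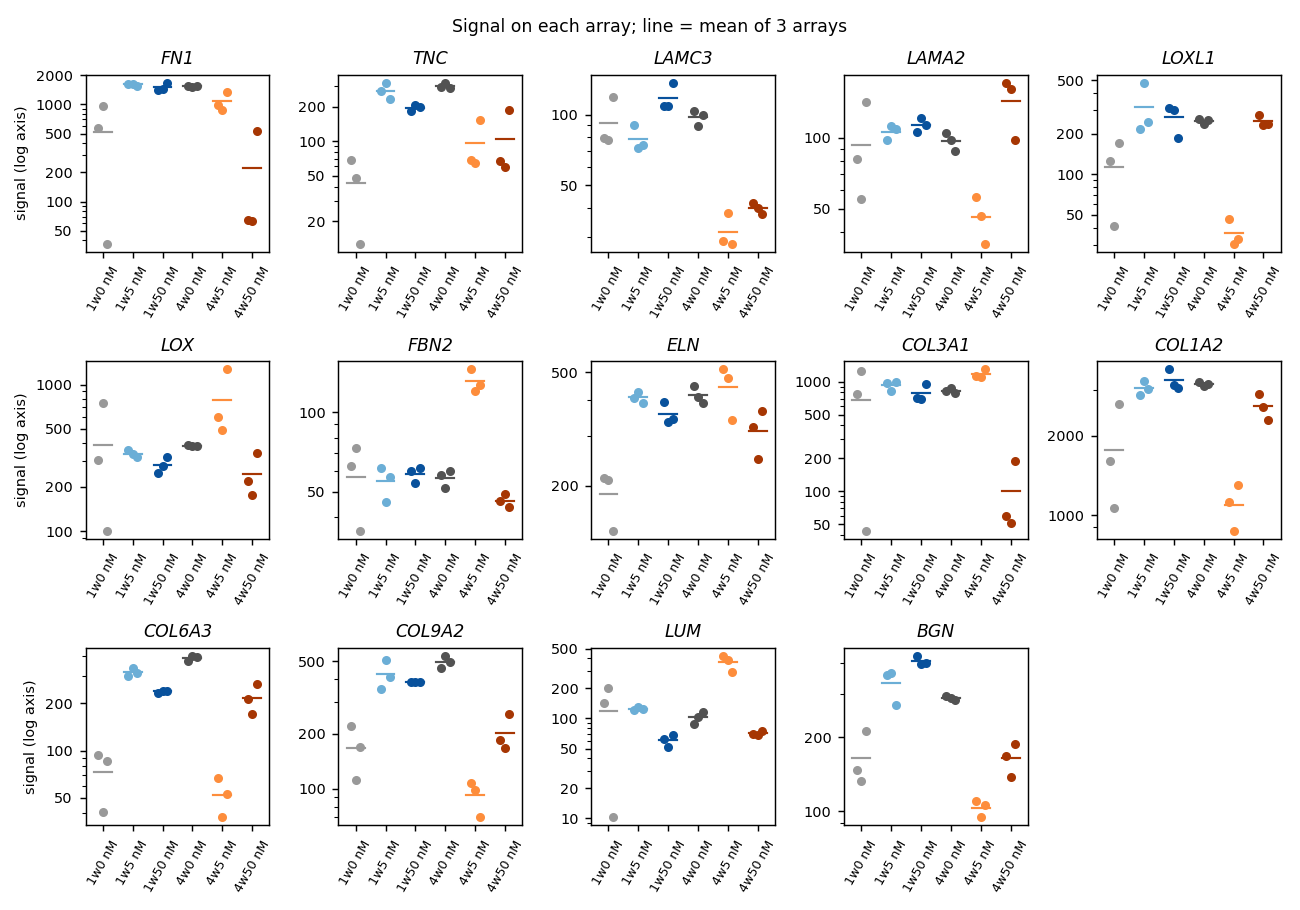
Signals of the 14 genes of widest range in their role, on a log axis, for each array (points, in replicate order) and the mean of each group's 3 arrays (line). The 3 points of 1w0 nM are far apart for FN1, LUM, COL3A1 and LOX, while those of 4w0 nM lie close together for all 14 genes.

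The doses were then compared directly with each other. At 1 week, 0 of the 48 genes differed between 1w50 nM and 1w5 nM in either direction, where 0% of all genes were higher and 0.0109% lower, and 6 had an unadjusted limma p below 0.05. The lowest of these belonged to LAMC3 (log2 difference 0.58, SE 0.18, unadjusted p = 0.00421, adjusted p = 0.182). LUM had the largest 1-week difference between doses, -1.05 (SE 0.56, adjusted p = 0.443).

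At 4 weeks the doses differed in 20 of the 48 genes. In 4w50 nM 11 genes were higher than in 4w5 nM (10.1% of all genes were) and 9 were lower (7.35% of all genes were). The higher genes were LOXL1 (2.76, SE 0.38, limma adjusted p = 0.000354), THBS2 (2.42, SE 0.37, adjusted p = 0.000549), COL6A3 (2.06, SE 0.25, adjusted p = 0.000258), LAMA2 (1.63), COL21A1 (1.35), COL1A2 (1.25), LAMA5 (1.22), COL9A2 (1.14), COL1A1 (0.77), COL5A1 (0.75) and BGN (0.66). The lower genes were COL3A1 (-3.81, SE 0.78, adjusted p = 0.00304), FN1 (-3.02, SE 0.86, adjusted p = 0.0209), LUM (-2.35, SE 0.56, adjusted p = 0.00812), LOX (-1.61, SE 0.48, adjusted p = 0.0266), FBN2 (-1.49, SE 0.21, adjusted p = 0.000354), DCN (-1.42), COL6A1 (-1.34), COL5A2 (-0.91) and FBLN1 (-0.69). The fibrillar collagens thus lay on both sides, with type I and V alpha 1 chains higher and COL3A1 and COL5A2 lower at 50 nM, and so did the cross-linkers LOXL1 and LOX. The median over the 48 genes was 0.006, near the 0.012 of all genes. Without 4w50 nM replicate 1 the count was 13 and not 20, with 9 higher and 4 lower. The FN1 call was lost without 4w5 nM replicate 2 or 3 and without 4w50 nM replicate 1 or 2, and COL21A1, LOX, COL5A2, COL6A1, COL5A1, BGN and FBLN1 were each lost without at least 1 array. COL21A1 gave 398, 397 and 1577 in 4w5 nM and 2020, 1747 and 1158 in 4w50 nM, so its groups overlapped at 1 array.

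**Figure D3:**
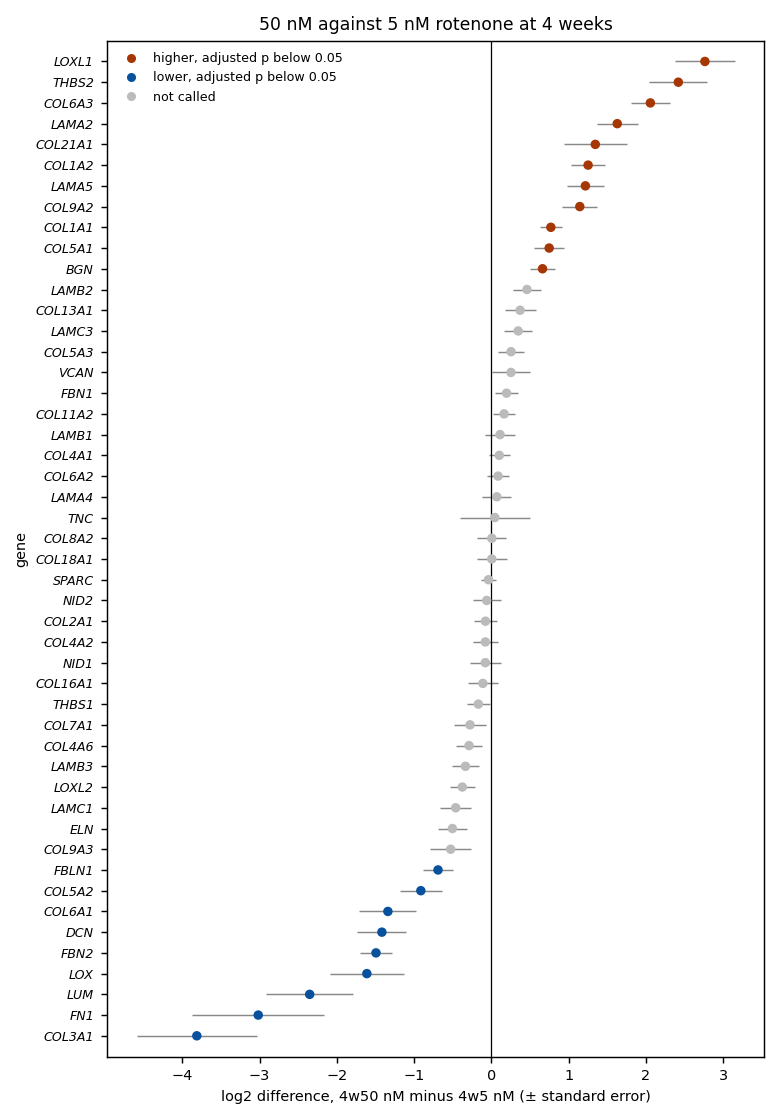
Log2 difference of 4w50 nM from 4w5 nM for each of the 48 matrix genes, with its standard error from limma, red where higher and blue where lower at an adjusted p below 0.05. The values run from -3.81 for COL3A1 to 2.76 for LOXL1.

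The effect of a dose was also tested against its own effect at the other week. For 5 nM, the effect at 4 weeks was lower than that at 1 week in 20 of the 48 genes and higher in 2, where 17.5% and 15.2% of all genes were. For 50 nM it was lower in 23 and higher in 3, beside 20.5% and 24.3% of all genes. COL6A3 had the largest difference for 5 nM (-5.10, SE 0.36, limma adjusted p = 1.94e-08), and FN1 for 50 nM (-6.03, SE 1.21, adjusted p = 0.000643). These values contain the vehicle of 1 week as well as that of 4 weeks. The doses were therefore also compared between weeks without a vehicle. From 1w5 nM to 4w5 nM, 4 genes rose (LUM 1.54, FBN2 1.26, COL4A6 0.76 and LAMC1 0.54) and 20 fell, beside 20.4% and 17.3% of all genes, with the largest falls in LOXL1 (-3.02), COL6A3 (-2.62) and COL9A2 (-2.21). From 1w50 nM to 4w50 nM, 3 rose (LAMB1 0.67, COL4A6 0.46 and COL4A1 0.45) and 16 fell, beside 30.5% and 20.7% of all genes, with the largest falls in FN1 (-3.54), COL3A1 (-3.23) and COL7A1 (-2.13). Among the genes that rose between weeks, LUM and LAMC1 at 5 nM and LAMB1 and COL4A6 at 50 nM lost the call without at least 1 array.

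**Figure D4:**
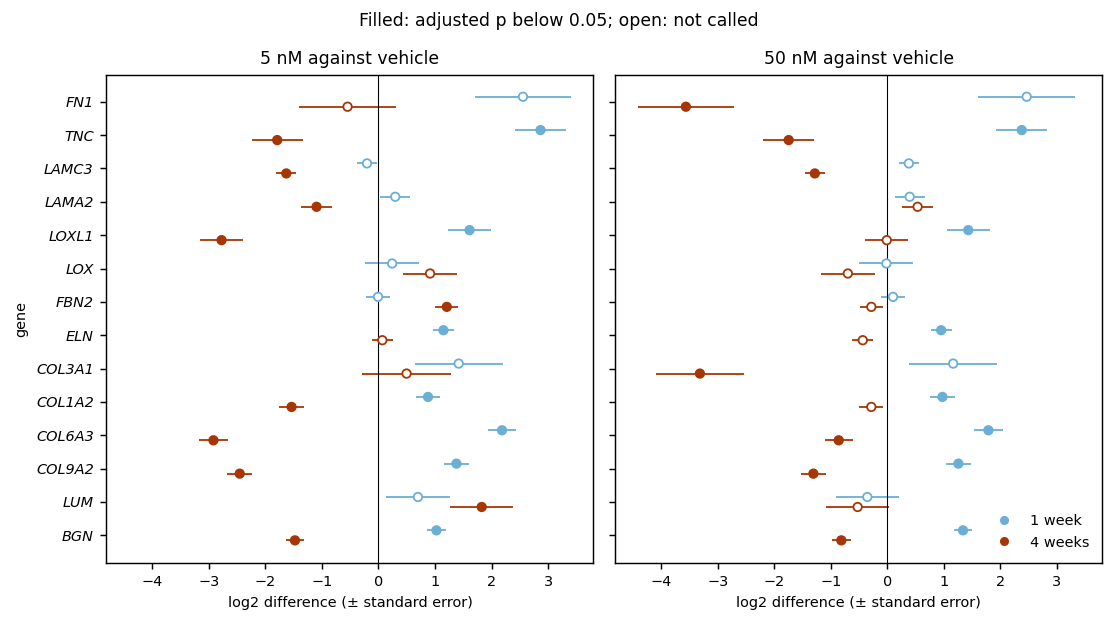
Log2 difference from the vehicle of the same week, with its standard error from limma, for the 14 genes given in full, at 5 nM (left) and 50 nM (right), after 1 week (blue) and 4 weeks (red); filled points passed an adjusted p below 0.05. TNC, COL6A3, COL9A2 and BGN lie right of 0 at 1 week and left of 0 at 4 weeks at both doses.

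The vehicle groups themselves differed. From 1w0 nM to 4w0 nM, 11 matrix genes rose and 0 fell, where 2.88% and 0.72% of all genes did. The largest rises were in TNC (3.02, SE 0.45, limma adjusted p = 0.000662), COL6A3 (2.49, SE 0.25, adjusted p = 1.13e-05), COL9A2 (1.62), VCAN (1.30) and ELN (1.18), and the count fell to 7 without 4w0 nM replicate 1 and to 7 without replicate 2. When the 1-week doses were compared with 4w0 nM in place of 1w0 nM, 0 genes were called in 1w5 nM and 1 in 1w50 nM, and the log2 differences of TNC, COL6A3, COL9A2, ELN and LAMB3 changed sign at both doses. With 1w0 nM replicate 1 as the only vehicle of that week, 8 genes were called in 1w5 nM and 13 in 1w50 nM. With the pair of arrays in doubt exchanged, 13 and 17 were called. Without 1w5 nM replicate 2, 9 were called in 1w5 nM. Of the 16 genes called at each dose, 9 in 1w5 nM and 12 in 1w50 nM kept the call without any single array. The number of the 1-week calls, and the sign of several differences that were then not called, thus depended on which arrays stood for the vehicle.

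Differences among the 1w0 nM arrays resembled the difference between the 4-week doses, with which they share no array. Replicate 3 differed from replicate 2 at least 2-fold in 18 of the 48 genes, and the SD of its log2 differences was 1.49, against 0.70 over all 9162 genes. Over the 48 genes these differences correlated with those of 4w50 nM from 4w5 nM at r = 0.92 (Pearson, across genes, which are not independent replicates), and 37 of 48 had the same sign, among them all 20 genes called between the doses. COL3A1 differed by -4.83 between these vehicle arrays, FN1 by -4.69 and LUM by -3.65. For replicate 3 against replicate 1 the r was 0.82, and for replicate 2 against replicate 1 it was -0.77. The 9 pairs of arrays within 1w5 nM, 1w50 nM and 4w0 nM gave r between -0.51 and 0.45, an SD of 0.15 to 0.34, and at most 1 gene with a 2-fold difference. Over all 9162 genes, replicate 3 against replicate 2 gave r = 0.75, so that the likeness was not limited to matrix genes. What separates the 1w0 nM arrays was not tested.

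**Figure D5:**
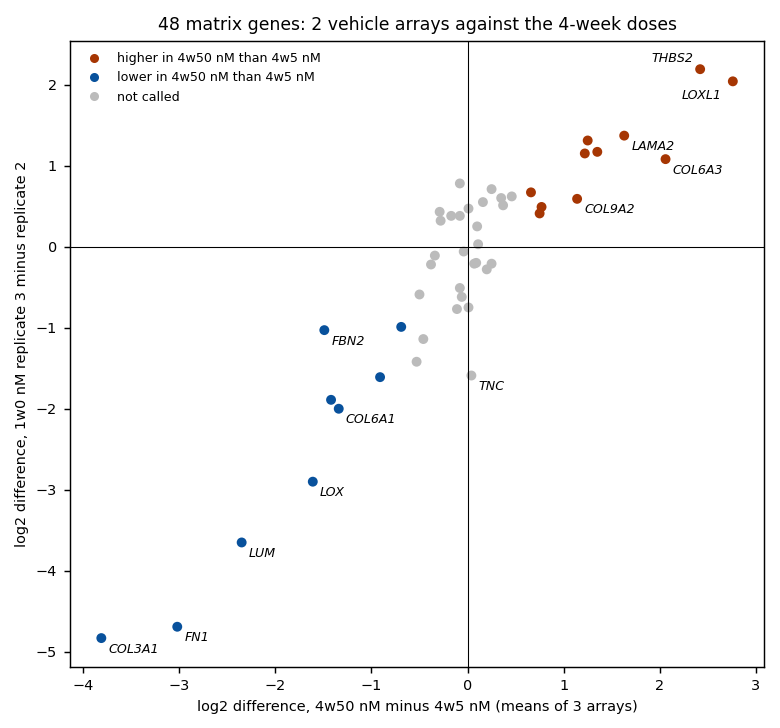
For each of the 48 matrix genes, the log2 difference between 2 vehicle arrays, 1w0 nM replicate 3 minus replicate 2, against the log2 difference of 4w50 nM from 4w5 nM, coloured by the call between the doses. All 20 called genes lie below 0 or above 0 on both axes, from COL3A1 and FN1 to THBS2 and LOXL1.

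Promoter sequence was set beside the genes that parted between the 4-week doses. RefSeq promoters (GRCh38.p14) were at hand for 36 of the 48 genes, and the 150 bases before the start were searched on both strands for TATAAA (the core of a TATA box), for CCAAT (the CCAAT box) and for GGGCGG (a GC box). TATAAA was in 3 of the 36 promoters (8.3%, against 7.0% of 27305 promoters), CCAAT in 7 (19.4% against 24.4%) and GGGCGG in 20 (55.6% against 36.7%). COL3A1 and LUM, with larger falls between the doses than LOX and FBN2, had no promoter at hand and are not printed. The first 3 sequences belong to genes lower at 50 nM than at 5 nM, the next 3 to genes higher there, and capitals mark a motif on the printed strand or, as CCGCCC or ATTGG, on the other. The lengths are all 150 bases, at FN1 chr2:215436069-215436218 (-), LOX chr5:122078260-122078409 (-), FBN2 chr5:128538246-128538395 (-), COL6A3 chr2:237414165-237414314 (-), LOXL1 chr15:73926312-73926461 (+) and THBS2 chr6:169253847-169253996 (-).
FN1: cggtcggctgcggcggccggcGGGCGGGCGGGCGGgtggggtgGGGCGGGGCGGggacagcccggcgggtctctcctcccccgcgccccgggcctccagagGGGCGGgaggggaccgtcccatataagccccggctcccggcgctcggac
LOX: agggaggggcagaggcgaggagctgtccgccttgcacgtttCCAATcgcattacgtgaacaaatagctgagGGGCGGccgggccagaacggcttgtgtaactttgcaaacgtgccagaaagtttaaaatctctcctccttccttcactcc
FBN2: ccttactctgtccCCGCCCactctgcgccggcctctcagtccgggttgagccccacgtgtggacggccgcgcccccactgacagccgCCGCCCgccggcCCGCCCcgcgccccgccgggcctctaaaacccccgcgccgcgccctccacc
COL6A3: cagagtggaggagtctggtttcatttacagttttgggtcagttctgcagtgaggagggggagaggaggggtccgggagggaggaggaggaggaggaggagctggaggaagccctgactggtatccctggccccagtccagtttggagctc
LOXL1: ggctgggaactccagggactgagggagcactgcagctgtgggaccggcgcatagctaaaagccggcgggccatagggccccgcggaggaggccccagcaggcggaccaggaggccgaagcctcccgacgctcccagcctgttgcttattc
THBS2: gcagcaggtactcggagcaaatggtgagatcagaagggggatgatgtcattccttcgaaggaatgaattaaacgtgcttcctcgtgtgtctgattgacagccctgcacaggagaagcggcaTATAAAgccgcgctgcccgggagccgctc

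FN1, LOX and FBN2 each hold at least 1 GGGCGG, LOX also holds CCAAT, THBS2 holds TATAAA, and COL6A3 and LOXL1 hold none of these letters in this window. GGGCGG is also in the promoters of BGN, COL21A1, COL9A2 and LAMA5, which were higher at 50 nM, so the printed sequences do not stand for all genes of either direction. A match is a description of the letters only, and factor binding was not measured.

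Neighbouring matrix genes could be compared through the RefSeq order. COL4A1 and COL4A2, the chains of the common type IV collagen, start 127 bases apart on opposite strands of chromosome 13, and the 150 bases before COL4A1 at chr13:110307158-110307307 (-) are shown because they span that whole gap.
COL4A1: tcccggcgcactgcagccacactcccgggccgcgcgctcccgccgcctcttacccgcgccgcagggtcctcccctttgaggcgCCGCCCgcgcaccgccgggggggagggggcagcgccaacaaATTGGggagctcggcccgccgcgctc

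This stretch holds CCAAT, as ATTGG, and GGGCGG, as CCGCCC. In the probe sets read, the log2 difference of 4w50 nM from 4w0 nM was 0.38 (limma adjusted p = 0.0312) for COL4A1 and -0.18 for COL4A2. Both moved little between the 4-week doses (0.10 and -0.08). The second probe sets gave -0.10 (COL4A1) and -0.25 (COL4A2) in 4w50 nM against 4w0 nM, neither called. Between the 4-week doses they gave -0.37 and -0.23, also not called. COL3A1 and COL5A2 are also neighbours, and both were lower at 50 nM than at 5 nM (-3.81 and -0.91). LUM and DCN were lower as well (-2.35 and -1.42). COL6A1 (-1.34) and COL6A2 (0.09) parted in the probe sets read. The second probe set of COL6A2 gave -1.86 between these doses and was called lower. Of the 5 kept probe sets of COL6A1, 1 was called lower, and the values ran up to -0.03.

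Several genes were read by more than 1 probe set, and these did not always go together. Of 27 genes with several kept probe sets, all probe sets had the same sign in 19 for 4w50 nM against 4w0 nM and in 20 for 4w5 nM against 4w0 nM. COL1A1 had opposite calls in 4w50 nM: the probe set read gave 0.01, another 1.00 (limma adjusted p = 0.0023) and the other two -0.49 and -0.73. The second probe set of COL6A2 gave -2.25 (adjusted p = 0.00068) where the one read gave 0.09, and the second of THBS1 gave 1.22 in 4w5 nM and 1.46 in 4w50 nM where the one read gave -0.08 and -0.25. The other probe sets of LAMA2 gave 1.32 and 1.29 in 4w50 nM, both called, where the one read gave 0.53. The second probe set of ELN fell at both doses at 4 weeks (-0.50 and -0.59) and gave -0.03 in 1w5 nM. The second probe set of LAMC1 fell in 4w50 nM (-0.58, adjusted p = 0.0124) and gave -0.03 in 4w5 nM, where the one read gave 0.26 and 0.72. The second of COL11A2 rose in 4w50 nM (0.49, adjusted p = 0.00876) and gave 0.28 in 4w5 nM, where the one read gave -0.37 and -0.53. The second of COL8A2 was called higher in 4w5 nM (0.57) and in 4w50 nM (0.68), where the one read gave 0.08 and 0.09. Of the 5 kept probe sets of COL6A1, 2 were called lower in 4w5 nM. The lowest value there was -0.86, and the COL6A1 probe set read gave 0.30. At 1 week 0 genes fell in the probe set read. The second probe set of COL4A1 was nevertheless called lower at both doses (-0.52 and -0.83), and that of LAMB1 in 1w50 nM (-0.76). Values of these genes, of SPARC and of other genes with several probe sets hold for the probe set read.

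Genes that make, bind or regulate the matrix were taken from fixed lists, whose counts stand beside the shares of all genes that rose and fell: 4.98% and 1.62% in 1w5 nM, 8.75% and 11.3% in 1w50 nM, 18.6% and 14.3% in 4w5 nM, and 23.5% and 17.7% in 4w50 nM. Several of the counts lie near these shares or, where genes rose at 4 weeks, below them. Of 30 other matrix proteins measured, 5 rose and 0 fell in 1w5 nM, 7 and 0 in 1w50 nM, 1 and 9 in 4w5 nM, and 2 and 13 in 4w50 nM. MFAP2, a microfibril protein, rose at 1 week (1.08 and 1.18) and fell at 4 weeks (-0.62 and -1.33), TGFBI fell at both doses at 4 weeks (-1.50 and -1.12), and EMILIN1, an elastic fibre glycoprotein, fell in 4w50 nM (-3.14, limma adjusted p = 9.30e-05). Of 19 collagen-making enzymes and chaperones, 2 rose and 0 fell in 1w5 nM, 3 and 1 in 1w50 nM, 1 and 2 in 4w5 nM, and 2 and 4 in 4w50 nM. PCOLCE, which speeds removal of the procollagen C-propeptide, rose at 1 week (1.48 and 1.34) and fell at 4 weeks (-0.75 and -1.50), and P4HA2, a prolyl hydroxylase subunit, rose in 4w50 nM (1.40, adjusted p = 0.0098).

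Of 24 matrix receptors, 3 rose and 0 fell in 1w5 nM, 4 and 0 in 1w50 nM, 6 and 2 in 4w5 nM, and 5 and 5 in 4w50 nM. Between the 4-week doses the fibronectin receptor chain ITGA4 was higher at 50 nM (1.84, limma adjusted p = 0.00049) and the syndecan SDC2 lower (-2.01, adjusted p = 0.00087). The laminin receptor chain ITGA6 rose in 4w50 nM (1.22). Of 23 TGF-beta ligands and matrix regulators, 2 rose and 0 fell in 1w5 nM, 3 and 5 in 1w50 nM, 2 and 3 in 4w5 nM, and 4 and 7 in 4w50 nM. TGFB1, a ligand that induces many matrix genes, rose at 1 week (1.04 and 0.92) and fell at both doses at 4 weeks (-1.12 and -1.24), SNAI2 rose at 1 week (1.93 and 1.24) and fell in 4w50 nM (-1.95), and ZEB1 rose at both doses at 4 weeks (1.24 and 1.90).

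Markers of other cell types moved with some of these groups. Of 14 fibroblast markers, none of which is a matrix member, 10 were measured, and TCF21, FBLN2, NT5E and MME reached a signal of 50 on no array. Their summed signal was 2446 to 5178 in 1w0 nM, 5019 to 5527 in 1w5 nM, 5046 to 5328 in 1w50 nM, 4710 to 4931 in 4w0 nM, 4270 to 5063 in 4w5 nM and 2376 to 2770 in 4w50 nM. It was thus lowest in 4w50 nM, where 6 of the 10 fell and 0 rose (17.7% and 23.5% of all genes did), and wide in 1w0 nM. Most of the sum came from TWIST1, DDR2 and CD248, with median signals of 1915, 1125 and 724 over the arrays. TWIST1 had the largest fall of the list in 4w50 nM (-1.95, limma adjusted p = 0.0018). In 1w5 nM 4 of the 10 fibroblast markers rose and 0 fell, beside 4.98% and 1.62% of all genes. In 1w50 nM 4 rose and 1 fell, beside 8.75% and 11.3%. In 4w5 nM 1 rose and 4 fell, beside 18.6% and 14.3%. PDGFRB rose at 1 week (1.84 and 1.37) and fell at 4 weeks (-0.98 and -0.95), and PRRX1 fell in 1w50 nM (-0.64) and rose in 4w5 nM (1.12). The smooth muscle sum (5 genes, MYH11 below 50 on all arrays) was 281 to 327 in 1w0 nM, 519 to 680 in 1w5 nM, 450 to 589 in 1w50 nM, 442 to 499 in 4w0 nM, 348 to 379 in 4w5 nM and 255 to 345 in 4w50 nM. The sum over 4 immune genes, of which CD14, CD3D and LYZ stayed below 50, was 68 to 1086 in 1w0 nM, 295 to 480 in 1w5 nM, 218 to 308 in 1w50 nM, 384 to 468 in 4w0 nM, 1361 to 1607 in 4w5 nM and 198 to 305 in 4w50 nM. This sum is in effect that of 1 gene, PTPRC, at 63.6 to 1567 over the arrays. CD14, CD3D and LYZ reached at most 21.2, 23.5 and 23.8. PTPRC rose in 4w5 nM (1.83) and was not called in 4w50 nM (-1.015). The direct comparison of the 4-week doses gave -2.85 for PTPRC, a call. The Schwann and glial sum (5 genes, SOX10 and CDH19 below 50 on all arrays) was 253 to 324 in 1w0 nM, 386 to 455 in 1w5 nM, 336 to 435 in 1w50 nM, 463 to 570 in 4w0 nM, 216 to 225 in 4w5 nM and 249 to 319 in 4w50 nM. Its 1 measured gene, S100B, rose in 1w5 nM (0.85) and fell at both doses at 4 weeks (-2.00 and -1.27). The endothelial sum (5 genes, CDH5, VWF and TEK below 50) stayed between 120 and 177 throughout. In 4w50 nM, 4 of the 7 Ewing family genes and 3 of the 9 neuroblast genes fell and 0 rose, where 17.7% of all genes fell and 23.5% rose. The Ewing family sum was 11160 to 12760 there, against 14470 to 14970 in 4w0 nM. The part of these markers in the matrix results was not tested.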

How the data were processed

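Total RNA of 18 cell pools (6 groups of 3, named by the labels) was hybridized to HG-U133A arrays. The deposited intensity values are linear model-based expression indexes per probe set, which the authors normalized between arrays and computed in dChip; the normalization method and the dChip version are not given in the sources used here. Here, signals were raised to a floor of 16 and put on the log2 scale. Probe sets naming 1 gene and reaching 50 on 3 or more arrays were kept, the one of highest mean log2 signal standing for its gene, so a group at the floor gives only a bound. limma 3.58.1 in R 4.3.3 was fitted to all 18 arrays (1 mean per group, 12 residual and 5.71 prior degrees of freedom, intensity trend), with Benjamini-Hochberg adjustment over 9162 genes in each of 11 comparisons, and was tested on simulated data. All values are log2 differences and standard errors of that fit unless named otherwise. Of the 19071 probe sets with 1 gene symbol, 1043 with several and 2169 with none or not listed, only the first were used.

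The members, the gene lists and the rules were chosen with earlier results of these data known. The genes given in full are the 2 of widest range between group means in each of 7 roles; other genes named are mostly called ones, or, chosen after their values were seen, those whose probe sets or arrays disagree. Group means listed by the study for 1w5 nM lay within 1% of the deposited arrays for 3 of 75 probe sets as labelled and for 68 with 1w5 nM replicate 2 and 1w50 nM replicate 3 exchanged, and for 1w50 nM in 3 and 94 of 112. Groups were kept as labelled, and the exchange was an alternative. Other alternatives were other floors, scalings and filters, probe set means, a replicate block, fewer arrays in the fit, the methods' t-test and leaving out each array. The 1w0 nM replicate 1 array as the only vehicle was added after seeing the data. Promoter sequences are from RefSeq (GRCh38.p14).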

Additional observations from a re-analysis of the deposited data

Results flagged for a closer look

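The results listed here are the matrix genes whose difference from vehicle at 4 weeks was not the same as that at 1 week, by limma's test of the difference itself at an adjusted p below 0.05. Each value is the log2 effect of the dose at 4 weeks minus its log2 effect at 1 week. All rest in part on the 1w0 nM arrays, which differed from each other, and what separates them was not tested.

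For 5 nM, the adhesive proteins gave -0.40 (SPARC), -2.31 (THBS2) and -4.66 (TNC). The basement membrane genes gave 0.84 (COL4A6), -1.39 (LAMA2), -1.14 (LAMB2), -1.40 (LAMB3) and -1.43 (LAMC3). LOXL1 gave -4.39, and the elastic fibre genes gave -1.08 (ELN), -1.11 (FBLN1) and 1.22 (FBN2). The fibrillar collagens gave -1.79 (COL1A1), -2.41 (COL1A2), -1.23 (COL2A1) and -1.58 (COL5A1). Of the other collagens, COL6A3 had the lowest value, -5.10, beside -1.64 (COL16A1), -2.74 (COL7A1) and -3.83 (COL9A2). The proteoglycans gave -2.50 (BGN) and -2.54 (VCAN). SPARC was no longer past the threshold without 1w0 nM replicate 1, 1w5 nM replicate 2 or 3, 4w0 nM replicate 1 or 4w5 nM replicate 2.

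For 50 nM, the adhesive proteins gave -6.03 (FN1), -0.44 (SPARC) and -4.12 (TNC). The basement membrane genes gave 0.64 (COL4A1), 0.78 (LAMA4), 0.89 (LAMB1), -0.71 (LAMB2), -1.61 (LAMB3) and -1.66 (LAMC3). LOXL1 gave -1.44, and the elastic fibre genes gave -1.39 (ELN) and -1.61 (FBLN1). The fibrillar collagens gave -0.65 (COL11A2), -0.90 (COL1A1), -1.26 (COL1A2), -1.42 (COL2A1), -4.48 (COL3A1) and -0.79 (COL5A1). The other collagens gave -1.63 (COL16A1), -1.79 (COL6A1), -2.65 (COL6A3), -3.02 (COL7A1) and -2.57 (COL9A2), and the proteoglycans -2.15 (BGN), -1.14 (DCN) and -2.17 (VCAN). LAMA4, LAMB1, LAMB2, LOXL1, COL5A1 and DCN were each lost without at least 1 array.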

How the results depend on the processing

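Counts are of the 48 matrix genes called. Leaving out 1 array at a time gave 9 to 18 genes for 1w5 nM against 1w0 nM, 12 to 22 for 1w50 nM against 1w0 nM, 18 to 25 for 4w5 nM against 4w0 nM, 14 to 22 for 4w50 nM against 4w0 nM, 13 to 20 for 4w50 nM against 4w5 nM, 7 to 14 for 4w0 nM against 1w0 nM, 19 to 24 for 4w5 nM against 1w5 nM, 14 to 19 for 4w50 nM against 1w50 nM, 21 to 29 for the difference of the 5 nM effects between weeks and 22 to 30 for that of the 50 nM effects. With no arrays in the fit but those of the 2 groups compared, 2 genes were called in 1w5 nM and 9 in 1w50 nM. That setting gave 30 in 4w5 nM, 29 in 4w50 nM, 1 between the 1-week doses and 2 between the vehicles. With each probe set tested on its own, 29 genes had a call in 4w50 nM. Median scaling gave 7 between the vehicles. With 1w0 nM replicate 1 as the only 1-week vehicle, an alternative added after seeing the data, 8 were called in 1w5 nM and 7 between the vehicles. The methods' t-test with a 2-fold change called, unadjusted and adjusted, 9 and 0 in 1w5 nM, 6 and 0 in 1w50 nM, 12 and 7 in 4w5 nM, 5 and 2 in 4w50 nM, 1 and 0 between the 1-week doses, 13 and 0 between the 4-week doses, 5 and 0 between the vehicles, 13 and 6 from 1w5 nM to 4w5 nM, and 4 and 3 from 1w50 nM to 4w50 nM.

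With 4w0 nM as the vehicle, 0 genes were called in 1w5 nM and 1 in 1w50 nM. The log2 differences that then changed sign were, in 1w5 nM, COL1A2 -0.053, COL2A1 -0.020, COL6A3 -0.30, COL9A2 -0.24, ELN -0.027, LAMB3 -0.06 and TNC -0.15, and in 1w50 nM, COL1A1 -0.092, COL6A3 -0.70, COL9A2 -0.36, ELN -0.23, LAMB3 -0.19, TNC -0.64 and VCAN -0.0949. The cause was not tested for any of these. A replicate block gave 15, 15, 20, 20, 0, 20, 11, 24, 19, 22 and 23 genes, in the order 1w5 nM, then 1w50 nM, then 4w5 nM, then 4w50 nM, 1-week doses, 4-week doses, vehicles, 5 nM between weeks, 50 nM between weeks, and the differences of the 5 nM and 50 nM effects. Same-numbered arrays mostly did not deviate together (correlation above 0.1 in 11 of 45 pairs, from -0.48 to 0.322). Differently numbered arrays were not set beside them, so this cannot settle whether the numbers pair the samples. Other floors, scalings, filters and probe set means moved no count by more than 1.5 times except where given above. Genes whose signal is near the floor of 16, little over background, give only bounds.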
